A study of Mus musculus with 7 samples.

Results

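Sense transcripts of whole mouse brain, read on the Affymetrix 430B array, were compared with those of whole mouse kidney, read on the Affymetrix 430 2.0 array. The members of the comparison were the 22411 probe sets that both arrays carry and that the companion 430A array does not, of the 45037 probe sets on the kidney array. The series holds 7 arrays of these tissues, of which the comparison used 1 for brain and 1 for kidney, and the brain 430A array served only to set a second scale. Each group was dissected tissue, rinsed in cold buffer and taken straight into TRIzol extraction of total RNA, with no further treatment named in the labels. Biotin-labelled cRNA was made from 8 µg of brain RNA and 6.75 µg of kidney RNA. The strain, age and sex of the mice and the number of animals behind each extract are not given in the sources used here. With 1 array a side there was no replicate error, no difference was tested, and the array type and the tissue cannot be told apart.

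Brain and kidney are built from different cell types. Neurons signal through synaptic vesicles, ion channels and transmitter receptors, and astrocytes, oligodendrocytes and microglia clear transmitter, form myelin and survey the tissue. The kidney filters blood at the podocytes of the glomerulus and then reclaims solutes and water along a tubule lined by transporting epithelium. The 430A and 430B arrays were sold as a pair, with the best characterised genes on 430A and mostly expressed sequence tags and less studied genes on 430B, so the comparison takes in many transcripts outside the textbook set of either tissue.

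A signal here is a MAS5 value, the brightness that the Affymetrix algorithm gives a probe set on a linear scale. The median signal of the compared probe sets was 120.6 on the brain array and 20.2 on the kidney array, and the upper quartiles were 262.5 and 55.9. On the kidney array the probe sets of the 430A design had a median of 121.2, 6-fold above those of 430B, whereas the medians of the separate brain arrays were 104 (430A) and 120.6 (430B). Both of the following scalings were therefore used throughout. In the first, 430B was centred by itself: a log2 ratio of 2.11 was removed, the median over probe sets brighter than both array medians. In the second, called the 430A scale, 430B was first brought to the brain 430A array through the 100 probe sets that both brain arrays carry and then shifted like the 430A comparison, which removed 0.49 in all. Of those 100 probe sets, 98 were above the median on both brain arrays and read 2.51-fold higher on 430B, and their log2 ratios had an SD of 0.25. The scalings differ by 1.62 on the log2 scale, or 3.08-fold, for every probe set.

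A floor replaced detection calls. It was the higher median of the pair after scaling, which was a brain signal of 120.6 as deposited under both scalings, and a kidney signal of 27.9 when 430B was centred by itself and 86.0 at the 430A scale. Signals below the floor were raised to it, and a probe set with at least 1 tissue above the floor was called for the brighter tissue from 2-fold on. "Under 2-fold" is meant after that step, so where 1 tissue lay below the floor the unmeasured ratio could be larger. Where the dimmer tissue lay below the floor, the fold is a lower bound and is written as at least N-fold. Such a bound for a brain gene rests on the brain signal over 120.6 and so is the same under both scalings by construction. All folds and log2 ratios are brain against kidney after scaling, with 430B centred by itself unless the 430A scale is named, and so differ from the ratio of the signals printed beside them.

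More probe sets were called higher in kidney than in brain when 430B was centred by itself, and the balance turned at the 430A scale. Calls for brain numbered 2490 (18.5%) and calls for kidney 3250 (24.1%) among the 13461 probe sets that cleared the floor. At the 430A scale it was 4375 (36.9%) for brain and 737 (6.21%) for kidney of 11868, and with signals as deposited 4907 (42.1%) and 435 (3.74%) of 11646. By gene, each represented by its probe set of highest mean percentile in the pair, 6869 of 9547 genes cleared the floor, with 1124 (16.4%) called for brain and 2195 (32%) for kidney. At the 430A scale the counts were 2317 (37.7%) and 503 (8.18%) of 6148 genes, and with signals as deposited 2728 (45.2%) and 296 (4.91%) of 6032. Over these genes the median log2 ratio was -0.27 when centred by itself and 0.67 at the 430A scale. The 430A probe sets, centred in their own comparison with the same kidney array, gave 19.8% brain and 21.1% kidney calls. Each count for a gene list below is read against these shares and medians.

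The 430A scale raises the brain signals and can therefore only add brain calls and remove kidney calls. All 1124 brain genes kept their call, 1193 genes that were under 2-fold became brain genes, and 503 of the 2195 kidney genes (22.9%) kept theirs. Of the other kidney genes, 1497 fell under 2-fold and 195 below the floor. The split also moved with the other settings: brain held 43.4% of the probe set calls when centred by itself, 85.6% at the 430A scale, 91.9% with signals as deposited, 27.7% with the floor at the 75th percentile and 17.1% with the floor of the 430A comparison. The balance of calls thus moved with the scale and the floor.

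**Figure D1:**
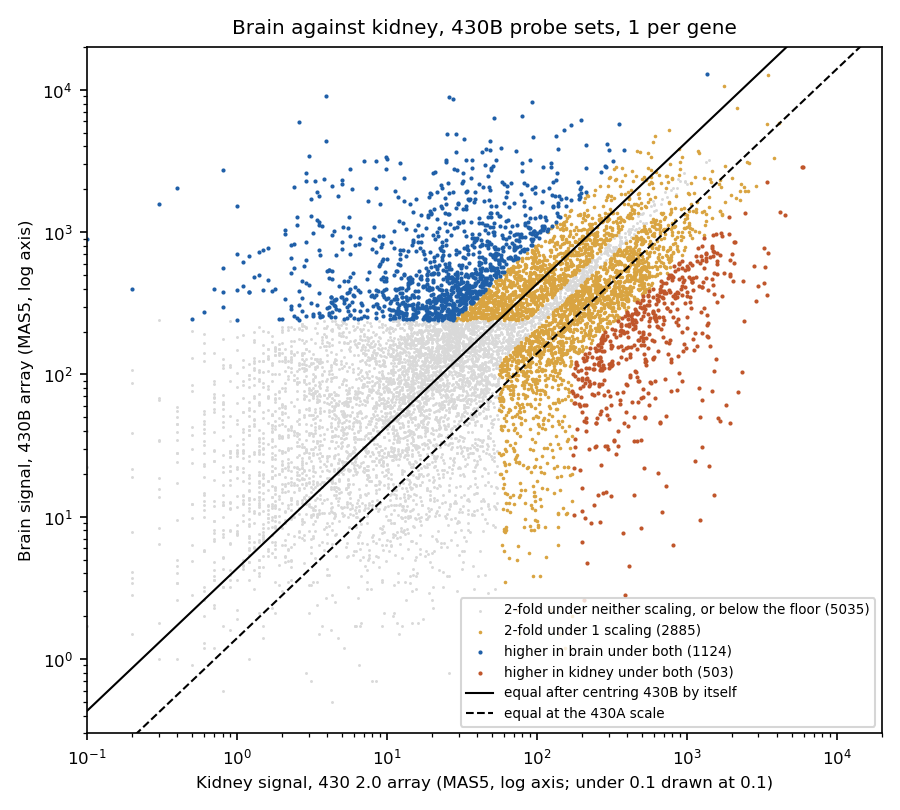
Brain signal against kidney signal for the 9547 genes of 430B, both axes logarithmic, with lines where the tissues are equal under each scaling. The 1124 genes called for brain and the 503 called for kidney under both scalings lie on either side of the 2885 genes that were called under 1 scaling.

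Large ratios were found in both directions. With 430B centred by itself, 373 genes passed 4-fold towards brain, 53 passed 16-fold and 8 passed 32-fold, and towards kidney it was 973, 104 and 25. At the 430A scale, 85 genes passed 16-fold towards brain and 11 towards kidney. Of the probe sets, 4303 were above the floor in brain only and 2262 in kidney only, with 6896 above it in both and 8950 in neither. A gene that was above the floor in 1 tissue only could have passed through the tissue where it was high, so those counts describe the arrays and are not a count of tissue-specific genes.

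The 12 genes with the largest ratio towards brain were led by Kif5a, the neuronal heavy chain of kinesin-1, a motor that moves cargo along axons. Kif5a read 9049.2 in brain and 3.9 in kidney, which is at least 75-fold higher in brain, and its relative Kif5c read 4888.1 and 28.9 (39.1-fold). Slc1a2, the main glutamate transporter of astrocytes, read 8880.8 and 25.8, at least 73.6-fold. Syt1, the calcium sensor of synaptic vesicle release, read 8559.8 and 27.4, at least 71.0-fold. In kidney, Kif5a, Slc1a2 and Syt1 lay below the floor of 27.9 and Kif5c just above it. The highest signal of the brain array was 12906.1.

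Cytoskeleton and matrix genes made up much of the rest. Nefl, the light chain of neurofilaments, read 5943 in brain and 2.6 in kidney, which is at least 49.3-fold, and Map1a, a microtubule-associated protein of neurons, read 6379.2 and 51.9 (28.4-fold). Septin3, a septin of nerve terminals, read 3385.5 and 9.9, at least 28.1-fold. Bcan, the brain matrix proteoglycan brevican, read 4350.2 and 3.9, at least 36.1-fold. Rph3a, a Rab3 effector on synaptic vesicles, was at least 40.6-fold higher in brain (4890.7 against 25.2), Bcas1, a marker of early myelinating oligodendrocytes, 32.1-fold (4539.4 against 32.7), and Slc1a3, the second astrocyte glutamate transporter, 29.5-fold (3678.8 against 28.8). Tmem130, a transmembrane protein, read 3440.9 and 3.0, at least 28.5-fold. The 12 were taken from genes called higher in brain under both scalings and with the floor at the 75th percentile, so that call is a condition of the choice. Bcan and Slc1a3 were read by probe sets of the _x_at kind, in which some probes match other transcripts too.

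The 12 genes with the largest ratio towards kidney were led by Col4a4, a chain of the collagen IV network in the glomerular basement membrane. Col4a4 read 104.6 in brain and 2341.5 in kidney, which is at least 84.0-fold higher in kidney and at least 27.2-fold at the 430A scale. Tmem52b, a transmembrane protein of the distal nephron, read 75.8 and 2177.1 (at least 78.1-fold, and 25.3-fold at the 430A scale). Gcnt1, a glycosyltransferase that branches O-glycans, read 45.7 and 1948.4 (at least 69.9-fold and 22.7-fold). In each of them brain lay below the floor under both scalings, so the fold fell with the scale in full.

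Transporters and transcription factors followed. Tmem174, a membrane protein of the proximal tubule, gave 61 for brain and 1813.2 for kidney (at least 65.0-fold, and 21.1-fold at the 430A scale), and Slc16a12, a creatine transporter, 49.4 and 1601.4 (at least 57.4-fold and 18.6-fold). Mfsd4b1, a transporter of the major facilitator superfamily, was at least 52.3-fold higher in kidney (76.2 against 1458.9), and Kcnj15, an inwardly rectifying potassium channel, at least 54.1-fold (14.1 against 1509.2). Hoxd8, a homeobox factor of the posterior body axis, read 47 and 1672.8, at least 60.0-fold, and Mecom, a zinc finger factor active in nephron segments, 22.7 and 1413.4, at least 50.7-fold. The posterior Hox genes are off in most of the brain, and kidney keeps several of them on. Smim4, a small mitochondrial membrane protein, was at least 54.7-fold higher in kidney (105.6 against 1525.9), Cobll1, a relative of the actin regulator cordon-bleu, 52.5-fold (128.4 against 1557.9), and Cd93, an endothelial receptor, at least 45.2-fold (30.9 against 1260.5). At the 430A scale the lowest of the 12 was Cd93, at least 14.7-fold. These 12 were likewise taken from genes that kept their call. Hoxd8 was read by a probe set of the _s_at kind, which can match several transcripts.

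**Figure D2:**
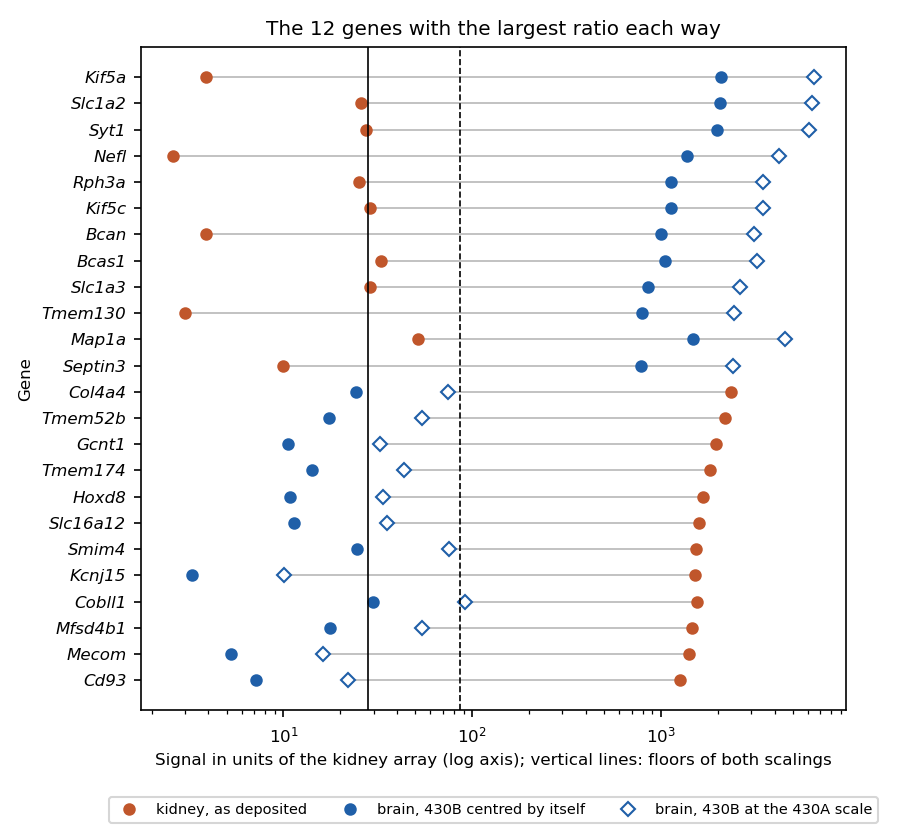
Signals of the 12 genes with the largest ratio each way in units of the kidney array, on a log axis, with the brain signal under each scaling and vertical lines at the floors of 27.9 and 86.0. The kidney signals of the first 12 genes lie at or left of the floor of the 430A scale, and the brain signals of 11 of the last 12 lie left of the matching floor.

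The upstream sequence of 4 of the strongest genes is shown because it carries a binding motif known from tissue-selective or activity-driven transcription. A search of both strands of the 250 bases before each start covered 3 motifs: GTTAAT, the core of the site of HNF1, CAAAGTCCA, a site of the nuclear receptor HNF4, and TGACGTCA, the cAMP response element bound by CREB, which reads the same on both strands. Both HNF factors are active in kidney tubule. The sequences are RefSeq's, build GRCm38.p6, all from genes on the plus strand, with the motif in capitals. Hoxd8 (chr2:74704365-74704614) and Mcm5 (chr8:75109259-75109508) were higher in kidney, Kif5c (chr2:49619036-49619285) and Meg3 (chr12:109540746-109540995) in brain.
Hoxd8: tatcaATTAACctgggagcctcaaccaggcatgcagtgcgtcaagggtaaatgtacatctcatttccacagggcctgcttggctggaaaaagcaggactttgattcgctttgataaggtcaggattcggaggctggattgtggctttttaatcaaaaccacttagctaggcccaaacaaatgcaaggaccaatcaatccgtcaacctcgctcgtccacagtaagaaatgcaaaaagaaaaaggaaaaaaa
Mcm5: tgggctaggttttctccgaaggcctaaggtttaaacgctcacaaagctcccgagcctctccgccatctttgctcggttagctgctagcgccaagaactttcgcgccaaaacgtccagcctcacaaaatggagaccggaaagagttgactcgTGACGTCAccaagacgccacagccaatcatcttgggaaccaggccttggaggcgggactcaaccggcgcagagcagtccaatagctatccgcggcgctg
Kif5c: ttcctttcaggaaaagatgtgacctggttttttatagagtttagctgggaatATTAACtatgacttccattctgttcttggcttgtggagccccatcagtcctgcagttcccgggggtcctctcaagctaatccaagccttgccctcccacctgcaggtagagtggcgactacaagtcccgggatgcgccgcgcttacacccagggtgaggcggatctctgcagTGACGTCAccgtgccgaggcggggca
Meg3: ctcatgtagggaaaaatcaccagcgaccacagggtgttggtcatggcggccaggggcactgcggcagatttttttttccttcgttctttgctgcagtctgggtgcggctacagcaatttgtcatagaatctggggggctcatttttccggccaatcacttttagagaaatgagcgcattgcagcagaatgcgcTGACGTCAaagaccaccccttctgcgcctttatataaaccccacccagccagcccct

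GTTAAT lay on the minus strand in Hoxd8, 245 to 240 bases before the start, and in Kif5c, 198 to 193 bases before it. TGACGTCA lay 99 to 92 bases before the start of Mcm5, 26 to 19 before that of Kif5c and 57 to 50 before that of Meg3. So each of these motifs was found upstream of a kidney gene and of a brain gene. Mcm5, a subunit of the helicase that opens DNA for replication, read 66.4 in brain and 1256.7 in kidney, which is at least 45.1-fold higher in kidney. Over all genes, GTTAAT was held by 3.89% of 873 promoters of genes higher in brain and 4.33% of 1756 higher in kidney, against 3.87% of the 5427 above the floor and 6.52% of the 27025 promoters in the table. TGACGTCA was held by 2.06% and 2.39%, against 2.65% above the floor and 1.62% of all, and CAAAGTCCA by 0.115% and 0.228%, against 0.221% and 0.381%. Among the 404 promoters of genes higher in kidney under both scalings, GTTAAT was held by 23, or 5.69%. TGACGTCA was held by 9 of the 404, or 2.23%, and CAAAGTCCA by 1, or 0.248%. A match is only a run of letters and does not show that a factor binds there.

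Neuronal signalling genes lay towards brain. Of 40 presynaptic vesicle and release genes on 430B, 34 cleared the floor, with 24 brain calls and no kidney call and a median log2 ratio of 1.92 (30, 0 and 3.09 at the 430A scale). Of 66 postsynaptic scaffold and adhesion genes, 59 cleared the floor, with 41 brain calls and 4 kidney calls and a median of 1.62 (45, 0 and 2.07). These lists were chosen with earlier results of these arrays known, and their direction here is a description. In whole tissue, fewer cells of a type and less RNA per cell cannot be told apart.

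At the presynaptic side, Rab3c, a small vesicle GTPase, read 2284.4 and 3.3, at least 18.9-fold higher in brain. Sv2b, a vesicle membrane glycoprotein, read 2034.3 and 23.1, at least 16.9-fold, and Slc17a7, which loads vesicles with glutamate, 1959.9 and 11.3, at least 16.3-fold. All were under the floor in kidney, like Syt1 and Rph3a above. At the postsynaptic side, Camk2n2, an inhibitor of the kinase CaMKII, was 19.3-fold higher in brain (3833.9 against 45.9), and the adhesion molecules Lsamp (1865.9 against 19.8), Chl1 (1585.8 against 14.3) and Lrrc4c (1587 against 24.7) at least 15.5, 13.1 and 13.2-fold. Nrxn2, a neurexin that binds partners across the synapse, was 15.1-fold higher (2388 against 36.5). The members called higher in kidney included Gphn, the scaffold of inhibitory synapses that also makes the molybdenum cofactor in other tissues (205 against 231, 4.87-fold, and 1.58-fold at the 430A scale), Flrt3 (387.9 against 208.1, 2.32-fold) and Lrfn4 (132.3 against 62.5, 2.04-fold). None of these was called at the 430A scale, where Flrt3 and Lrfn4 leaned to brain, at log2 ratios of 0.41 and at least 0.13.

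Channels and receptors had members on both sides. Of 75 voltage-gated and related cation channel genes, 64 cleared the floor, with 38 brain calls and 8 kidney calls and a median of 1.45 (42, 2 and 2.00 at the 430A scale). Kcna1 and Kcna2, potassium channels of axons, read 2768.3 against 9.8 and 1272.5 against 5.6, at least 23.0-fold and 10.6-fold higher in brain. Scn2a, a sodium channel of axon initial segments, read 2742.3 and 0.8, at least 22.7-fold. The inward rectifiers of kidney tubule stood at the other end: besides Kcnj15, Kcnj16 read 274.8 and 1236.8, 19.5-fold higher in kidney and 6.31-fold at the 430A scale, and these were the 2 kidney calls left at that scale. Kcnj11, the pore of the ATP-sensitive potassium channel, read 997 and 793.5, 3.44-fold higher in kidney and 1.12-fold at the 430A scale.

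Of 44 receptor genes for GABA, glycine, glutamate, acetylcholine, serotonin and dopamine, 38 cleared the floor, with 23 brain calls and 1 kidney call and a median of 1.44 (27, 0 and 1.66 at the 430A scale). Gria2, the AMPA receptor subunit that limits calcium entry, read 2034 in brain and 0.4 in kidney, which is at least 16.9-fold higher in brain. The GABA receptor subunits Gabrb2 (1898.7 against 33.5) and Gabra4 (1170.5 against 29.7) were 13.1-fold and 9.11-fold higher, the metabotropic glutamate receptor Grm4 (1961.7 against 48.7) 9.32-fold and the serotonin receptor Htr2c (888.9 against 8.1) at least 7.37-fold. The kidney call was Chrna4, a nicotinic receptor subunit, at 142.1 against 123.9 (3.77-fold, and 1.22-fold at the 430A scale). Its brain signal was near the floor of 120.6, and its 2 probe sets on 430A read higher in brain, at 176.9 against 25.2 and 238.4 against 51.6.

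Neuronal RNA-binding proteins and transcription factors were more divided. Of 40 on 430B, 38 cleared the floor, with 16 brain calls and 7 kidney calls and a median of 0.69 (20, 1 and 1.12 at the 430A scale). The splicing regulators Rbfox1 (3225.3 against 36.8), Rbfox3 (1711.9 against 34.5), the antigen NeuN, and Celf5 (3152.4 against 7.0) were 20.3-fold, 11.5-fold and at least 26.1-fold higher in brain. Zic1, a factor of cerebellar granule neurons, read 1572.9 and 0.3 (at least 13-fold), and Neurod2, a factor of cortical excitatory neurons, 1335.9 and 19.6 (at least 11.1-fold). Other members were called for kidney. Pou3f3, which patterns the loop of Henle as well as the forebrain, read 1375.2 in brain and 1157 in kidney, both far above the floor, and was 3.64-fold higher in kidney but 1.18-fold at the 430A scale. Cux1 read 507.7 and 560.5 (4.77-fold and 1.55-fold). Msi2, an RNA-binding protein of progenitor cells, read 448.4 and 1087, 10.5-fold higher in kidney and 3.40-fold at the 430A scale, the 1 member of the list called for kidney under both. Another Msi2 probe set, at 66.1 against 881.8, was also called for kidney under both scalings. Those at 284.6 against 48.3 and 408 against 66.5 were called for brain at the 430A scale.

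Guidance and adhesion families were divided between the tissues. Of 43 semaphorin, plexin, ephrin, netrin and slit genes and their receptors, 40 were above the floor, with 12 higher in each tissue and a median of 0.21 (20 in brain, 4 in kidney and 1.07 at the 430A scale). The largest ratios were towards kidney: Sema5a read 359.6 and 3396.1 (40.8-fold, and 13.2-fold at the 430A scale), Sema3g 165.8 and 764.5 (19.9-fold and 6.46-fold), Sema3c 391.4 and 1093.5 (12.1-fold and 3.92-fold) and the basement membrane netrin Ntn4 245.3 and 610.1 (10.8-fold and 3.49-fold). They were the 4 kidney calls at the 430A scale. Unc5a, a netrin receptor of neurons, was at least 8.52-fold higher in brain (1027.8 against 15.3). Among 14 protocadherins, cell adhesion molecules best known from neurons, 11 were above the floor and 3 were called each way (median 0.34, and 1.41 at the 430A scale). Pcdh9 read 1707.1 and 38.5 (10.3-fold), Pcdh10 535.5 and 4.3 (at least 4.44-fold) and Pcdh8 775.5 and 58.9 (3.04-fold). Pcdh12, the vascular protocadherin, read 14.7 and 276.3, at least 9.91-fold higher in kidney and 3.21-fold at the 430A scale. Pcdh17 (285.7 against 176.9) and Pcdhb16 (113.8 against 129.1) were 2.68-fold and at least 4.63-fold higher in kidney. Neither was called at the 430A scale, where Pcdh17 leaned to brain by 1.15-fold and Pcdhb16 to kidney, at a log2 ratio of -0.59 that is again a bound.

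Glial lists were mixed too. Of 23 astrocyte genes, 20 cleared the floor, with 9 brain calls and 3 kidney calls and a median of 0.44 (12, 2 and 1.29 at the 430A scale). After Slc1a2, Bcan and Slc1a3, the next was Ncan, the matrix proteoglycan neurocan, at 2108 against 4.3 (at least 17.5-fold). The kidney calls were Slc15a2, a peptide transporter of kidney tubule as well as astrocytes (426.2 against 1484.3, 15.1-fold, and 4.88-fold at the 430A scale), Ranbp3l (409.6 against 1255.7, 13.3-fold and 4.30-fold) and Slc4a4, the sodium bicarbonate cotransporter (1932.9 against 2561, 5.73-fold and 1.86-fold). Slc4a4 was bright in both tissues.

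Of 28 oligodendrocyte and myelin genes, 24 cleared the floor, with 7 brain calls and 6 kidney calls and a median of 0.31 (9, 0 and 0.84 at the 430A scale). The shares were 29.2% for brain and 25% for kidney, against 16.4% and 32% of all genes. At the 430A scale the brain share of 40.9% was near the 37.7% of all genes. The largest ratios were on the brain side: Mobp, a structural myelin protein, at 1999.1 against 5.8 (at least 16.6-fold), Tmem88b at 1469.7 against 28.8 (11.8-fold), Opalin at 1173.4 against 32.1 (8.45-fold) and Ermn at 821.8 against 6.5 (at least 6.81-fold). The largest kidney calls, Zdhhc20 (167.8 against 141.1), Enpp6 (133.2 against 105.9) and Enpp4 (351.5 against 227.8), were between 2.80-fold and 3.64-fold, and all 6 ended at the 430A scale.

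Few immune genes are on this array. Of 13 microglial and other immune genes, 9 cleared the floor, with 4 brain calls and 3 kidney calls (median 0.87, and 1.28 with 5 and 1 at the 430A scale). P2ry13 (345.1 against 24.6) and Siglech (295.4 against 19.3), receptors of microglia, and Dock2 (347.3 against 4.2), a leukocyte exchange factor, were at least 2.86, 2.45 and 2.88-fold higher in brain. With the floor at the 75th percentile, P2ry13, Siglech and Dock2 were under 2-fold. The list then had 0 brain calls and 2 kidney calls among 8 genes and a median of 0.16. Ptprc, the leukocyte antigen CD45, read 1.7 and 3.7 and was under the floor in both. On the kidney side, Sall1, which microglia and nephron progenitors share, read 84.3 and 400.3 (at least 14.4-fold, and 4.65-fold at the 430A scale). H2-Aa, a class II antigen chain (129.9 against 127.7, 4.25-fold, and 1.38-fold at the 430A scale), and Laptm5, a lysosomal protein of blood cells (109.4 against 61.9, at least 2.22-fold, and below the floor in both tissues at the 430A scale), lost their call there.

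Kidney lists lay towards kidney under both scalings, to a lesser extent at the 430A scale. Of 34 proximal tubule genes, 29 cleared the floor, with 22 kidney calls and 1 brain call and a median of -3.03 (15, 2 and -1.62 at the 430A scale). After Tmem174 and Slc16a12 came Mep1a, a metallopeptidase of the brush border, at 80.6 against 1211.7 (at least 43.4-fold, and 14.1-fold at the 430A scale). Slc39a5, a zinc transporter, read 103.1 and 879.5 (at least 31.5-fold and 10.2-fold), and Slc5a12, a sodium-coupled lactate transporter, 6.3 and 811.9 (at least 29.1-fold and 9.44-fold). In all of them brain was below the floor.

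Further along the nephron, 29 of 32 genes of Henle's loop, the distal tubule and the collecting duct cleared the floor, with 19 kidney calls and 3 brain calls and a median of -1.77 (8, 4 and -0.39 at the 430A scale). Tmem213, a protein of acid-secreting intercalated cells, read 230.5 and 1373.5 (25.8-fold, and 8.35-fold at the 430A scale), and Abca13, a large lipid transporter, 67.9 and 616.4 (at least 22.1-fold and 7.17-fold). Slc12a3, the thiazide-sensitive cotransporter of the distal convoluted tubule, read 22 and 2.7 on 430B and was under the floor in both tissues. The brain calls were Cacnb4, a calcium channel subunit of neurons (1164.4 against 41.2, 6.54-fold), Tspan8 (285.9 against 20.8, at least 2.37-fold) and Aqp4, a water channel of astrocyte endfeet as well as collecting duct (568.7 against 59.7, 2.20-fold).

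Of 22 podocyte genes, 20 cleared the floor, with 13 kidney calls and 1 brain call and a median of -1.56 (6, 3 and -0.23 at the 430A scale). Col4a3, the partner chain of Col4a4, read 88.3 and 567 (at least 20.3-fold, and 6.59-fold at the 430A scale), and Dach1, a transcription cofactor, 103.4 and 461.1 (at least 16.5-fold and 5.36-fold). Dpp4, a membrane peptidase that the proximal tubule also carries, read 24.5 and 1134.4 (at least 40.7-fold and 13.2-fold). The brain call was Mapt, the microtubule protein tau, at 2805.6 against 212.4 (3.05-fold, and 9.42-fold at the 430A scale).

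Of 28 kidney transcription factors, 21 cleared the floor, with 18 kidney calls and no brain call and a median of -2.29 (10, 0 and -1.09 at the 430A scale). After Hoxd8 and Mecom, Maf, a leucine zipper factor, read 329.3 and 2904.2 (38.1-fold, and 12.4-fold at the 430A scale), Emx2, a homeobox factor of the urogenital tract, 129.8 and 593.1 (19.8-fold and 6.41-fold) and Glis3, a factor whose loss gives cystic kidneys, 33.8 and 446.8 (at least 16-fold and 5.19-fold). Of the 5 probe sets for Maf on 430B, 4 were higher in kidney under both scalings and the other read 134.6 and 10. Of 27 epithelial junction, polarity and keratin genes, 20 cleared the floor, with 14 kidney calls and no brain call and a median of -1.83 (7, 1 and -0.27 at the 430A scale). Met, the receptor of hepatocyte growth factor, read 9.5 and 1220.2 (at least 43.7-fold and 14.2-fold), Tmprss2, a membrane serine protease, 176.3 and 1105 (27.1-fold and 8.79-fold) and the claudin Cldn12 488.2 and 1929 (17.1-fold and 5.54-fold). Shroom4, a regulator of the apical cytoskeleton, read 345.2 and 696.7 (8.73-fold and 2.83-fold).

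Genes of vessels and of lipid oxidation had members called for each tissue. Of 17 endothelial, mural and fibroblast genes, 14 cleared the floor, with 8 kidney calls and 3 brain calls and a median of -1.58 (4, 4 and -0.35 at the 430A scale). The endothelial genes Adgrf5 (323.8 against 1052.4), Ecscr (153.9 against 313.6), Gpihbp1 (376.6 against 657.9) and Erg (9.8 against 208.1) were 14.1, 8.81, 7.55 and at least 7.46-fold higher in kidney, and 4.56, 2.86, 2.45 and at least 2.42-fold at the 430A scale. Mmrn2 (307.5 against 366.6) was 5.16-fold higher in kidney and 1.67-fold at the 430A scale. Its other probe sets on 430B, at 182.2 against 413.7, 122.8 against 280.5 and 78.8 against 755.9, were called for kidney under both scalings. Mfsd2a, the lipid transporter of the endothelium at the blood-brain barrier, was at least 3.76-fold higher in brain (453.7 against 9.5), and the matrix genes Fbln1 (338.9 against 11.2) and Sparc (292.2 against 16) at least 2.81-fold and 2.42-fold. Of 28 fatty acid oxidation and peroxisome genes, 24 cleared the floor, with 12 kidney calls and 4 brain calls and a median of -1.11 that turned to 0.18 at the 430A scale (5 and 8). Bdh2, a dehydrogenase of ketone and siderophore metabolism, read 159.2 and 1171.2 (31.8-fold, and 10.3-fold at the 430A scale), Acot2, a mitochondrial thioesterase, 89.2 and 614.1 (at least 22-fold and 7.14-fold), and Ppara, the nuclear receptor that drives fatty acid oxidation, 123.7 and 318.6 (11.1-fold and 3.61-fold). The peroxisomal gene Agps (395.9 against 598) was 6.53-fold higher in kidney and 2.12-fold at the 430A scale, and Nudt12 (86.4 against 239.1) at least 8.57-fold and at least 2.78-fold. The brain calls included the brain forms Acsl6 (479.6 against 26.2, at least 3.98-fold) and Cpt1c (879 against 75, 2.71-fold), and Acad10 (326.2 against 23, at least 2.70-fold).

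**Figure D3:**
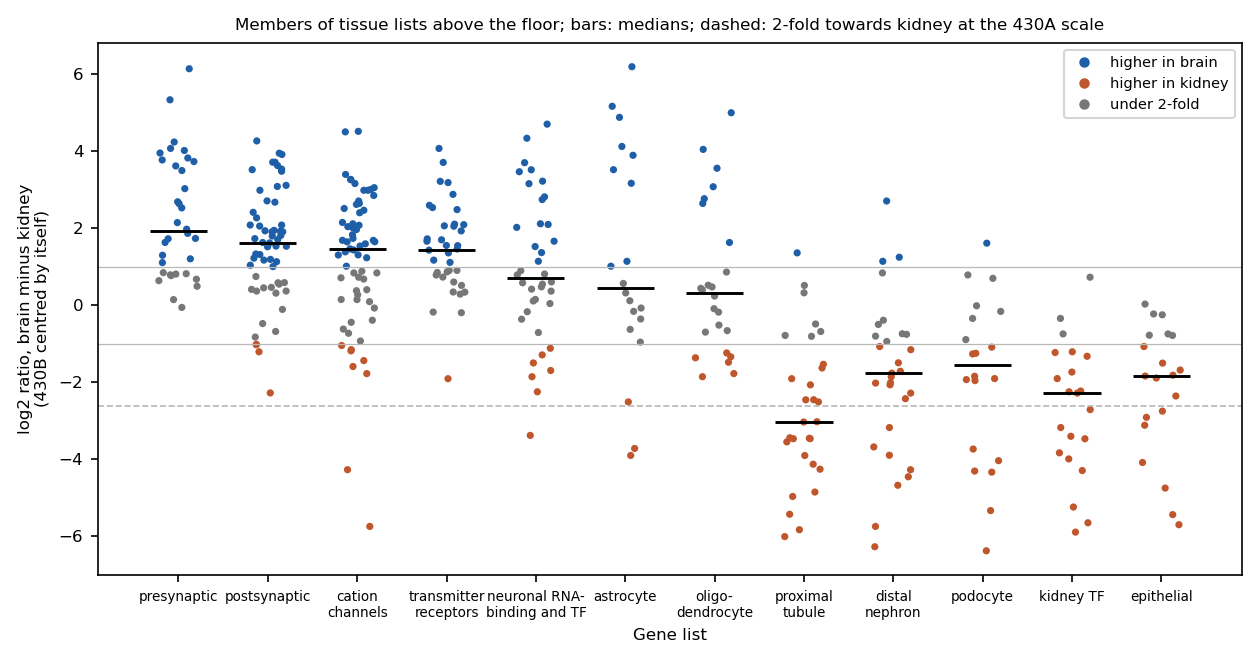
log2 ratio, brain minus kidney with 430B centred by itself, of each gene above the floor in 12 tissue lists, with bars at the medians, solid lines at 2-fold and a dashed line where a gene is 2-fold towards kidney at the 430A scale. The presynaptic list has no point below the lower 2-fold line, the kidney transcription factors and epithelial genes none above the upper one, and all other lists reach past both.

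Families with members in every tissue were also split. Of 164 solute carriers, 129 cleared the floor, with 59 kidney calls and 19 brain calls and a median of -0.71 (22, 36 and 0.35 at the 430A scale). The extremes were Slc1a2, Slc1a3 and the photoreceptor and neuron calcium exchanger Slc24a2 (2091.9 against 2.4, at least 17.3-fold) for brain and the tubule carriers named above for kidney. Of 217 zinc finger genes named Zfp, 176 cleared the floor, with 73 kidney calls and 8 brain calls and a median of -0.76, and at the 430A scale this turned to 5 and 42 with a median of 0.54. Zfp365 was at least 15.7-fold higher in brain (1891.9 against 19.5), and Zfp692 (921.8 against 65) and Zfp277 (470.9 against 49.5) 3.28-fold and 2.20-fold. The kidney genes that kept their call included Zfp266 (481.6 against 1038.8, 9.33-fold and 3.02-fold at the 430A scale), Zfp217 (14.2 against 255.5, at least 9.16-fold and 2.97-fold), Zfp467 (130.5 against 250.1, 8.29-fold and 2.69-fold) and Zfp800 (92.3 against 188.2, at least 6.75-fold and 2.19-fold). Other probe sets of Zfp266, at 301.1 against 38.8 and 424.4 against 74.3, were called for brain at the 430A scale. With 430B centred by itself they were under 2-fold.

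Ubiquitin ligase genes were called in shares near those of all genes, with 31.6% for kidney and 16.2% for brain against 32% and 16.4%, and 8.04% and 40.2% against 8.18% and 37.7% at the 430A scale. Of 148 F-box, RING finger, tripartite motif and Kelch-like ubiquitin ligase genes, 117 cleared the floor, with 37 kidney calls and 19 brain calls (median -0.20, and 0.69 with 9 and 45 at the 430A scale). Fbxl16 read 6507.9 and 79.9, 18.8-fold higher in brain and at least 54.0-fold at the 430A scale, and Trim37 and Trim9, the latter a ligase of nerve terminals, 1619.9 against 37.9 and 776.2 against 16.6 (9.88-fold and at least 6.44-fold). On the kidney side were Rnf185 (134.1 against 878.7, 28.3-fold and 9.19-fold), Fbxw8 (179.8 against 509.5, 12.3-fold and 3.97-fold), Trim63 (34.2 against 325.7, at least 11.7-fold and 3.79-fold) and Rnf103 (238.2 against 618.5, 11.2-fold and 3.64-fold). Of 84 chromatin genes, 71 cleared the floor, with 32 kidney calls (45.1%) and 3 brain calls (4.23%) and a median of -0.78. At the 430A scale it was 6 (8.96%) for kidney and 23 (34.3%) for brain with a median of 0.61. There the shares were near the 8.18% and 37.7% of all genes. Chd5, a neuronal chromatin remodeller, was at least 12-fold higher in brain (1448.8 against 20.7), with Kat2b (290.8 against 24.1) and Phf8 (254.2 against 20.9) at least 2.41-fold and 2.11-fold. Kdm6b, a histone H3 demethylase, was 12.6-fold higher in kidney (242.8 against 706.1) and 4.08-fold at the 430A scale, Arid1b (477.8 against 744.3) 6.74-fold and 2.18-fold, and Kdm2b (362.1 against 550.9) 6.58-fold and 2.13-fold. For Asxl2, with brain below the floor (80.1 against 193.8), it was at least 6.95-fold and at least 2.25-fold.

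Motor and pump families had strong members on both sides. Of 53 kinesin and Rab genes, 42 cleared the floor, with 14 kidney calls and 11 brain calls (median -0.09, and 1.13 with 1 and 19 at the 430A scale). Kif21b read 1279.8 and 47.4 (6.24-fold higher in brain), and Kif12, a kinesin of kidney epithelium, 155.5 and 407.2 (11.3-fold higher in kidney and 3.67-fold at the 430A scale). Of 40 ABC transporter and P-type and V-type ATPase genes, 31 were above the floor and 5 were called each way (median -0.07, and 1.07 with 4 in kidney and 13 in brain). Atp6v0d2, a proton pump subunit of intercalated cells, was at least 15.0-fold higher in kidney (98.7 against 418.2), the nucleotide and urate exporter Abcc4 18.8-fold (123.8 against 537.1) and the aminophospholipid flippase Atp8b1 at least 7.57-fold (49.1 against 211.1). Abcc9, the regulatory subunit of an ATP-sensitive potassium channel, read 253.1 and 241.4 (4.12-fold, and 1.34-fold at the 430A scale). The other Abcc9 probe set on 430B, at 244.8 against 87.3, was under 2-fold and was called for brain at the 430A scale. Calls for brain included Atp8a1 (1744.4 against 157.3, 2.56-fold), Atp2c1 (317.3 against 27.5, at least 2.63-fold) and Atp13a5 (313.3 against 8.6, at least 2.60-fold).

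Of 135 genes named only as transmembrane proteins (Tmem), 112 cleared the floor, with 44 kidney calls and 14 brain calls (median -0.61, and 0.56 with 14 in kidney and 34 in brain at the 430A scale). Beside those named above, Tmem59l (2985.7 against 44.9) and Tmem151a (3265.4 against 10) were 15.4-fold and at least 27.1-fold higher in brain. Of 43 primary cilium genes, 38 cleared the floor, with 15 kidney calls and 1 brain call (median -0.70, and 0.69 with 3 and 10). Kidney calls took 39.5% and brain calls 2.63%, against 32% and 16.4% of all genes. At the 430A scale it was 8.57% and 28.6%, so the kidney share was near the 8.18% of all genes there. The intraflagellar transport genes Dync2li1 (391.9 against 763.6), Ift122 (279 against 457.1) and Ift43 (286 against 450.8) were 8.43, 7.08 and 6.82-fold higher in kidney and 2.73, 2.30 and 2.21-fold at the 430A scale. The brain call was the ciliary motor Kif3a (974.5 against 72, 3.13-fold), and Tmem237 (327.9 against 405.6) and Cep164 (315.7 against 326.9) were called for kidney at 5.35-fold and 4.48-fold but not at the 430A scale, with 1.73-fold and 1.45-fold. Of 25 mitochondrial ribosomal proteins, 21 cleared the floor, with 7 kidney calls and 4 brain calls (median 0.28, and 0.64 with 2 and 9). The shares of 33.3% for kidney and 19% for brain were near the 32% and 16.4% of all genes. At the 430A scale they were 10% and 45%, against 8.18% and 37.7%. Mrpl9 (145.7 against 942.6, 28.0-fold) and Mrps6 (611.4 against 2064.4, 14.6-fold) kept their kidney call at the 430A scale, at 9.07-fold and 4.73-fold. Mrps10 (554.4 against 631.5), Mrps27 (230 against 214.6) and Mrpl44 (156.6 against 130.4) did not, at 1.60-fold, 1.31-fold and 1.17-fold.

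**Figure D4:**
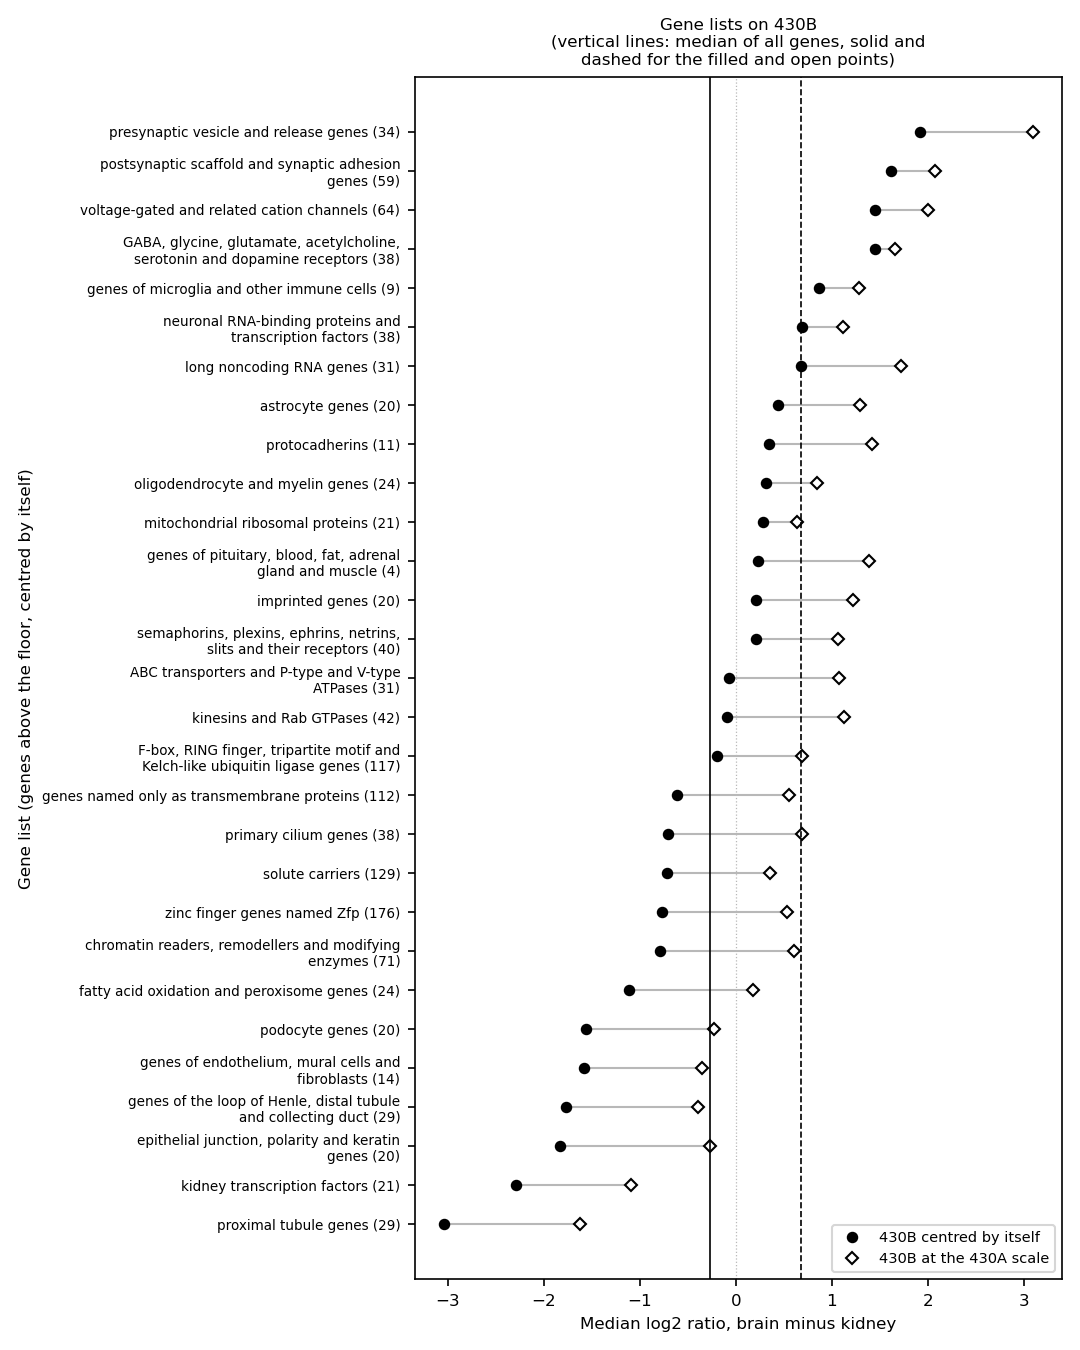
Median log2 ratio, brain minus kidney, of the genes above the floor in each gene list described here with 3 or more such genes, under each scaling, with the number of genes in brackets and lines at the medians of all genes, -0.27 and 0.67. Every list moves right at the 430A scale, from 1.92 to 3.09 for presynaptic genes and from -3.03 to -1.62 for proximal tubule genes.

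Noncoding and imprinted genes included some of the brightest brain signals. Of 37 long noncoding RNA genes in the list, 31 cleared the floor, with 13 brain calls and 6 kidney calls and a median of 0.68 (17, 0 and 1.72 at the 430A scale). Meg3, the maternally expressed RNA whose promoter is printed above, read 8149.5 in brain and 92.3 in kidney, 20.4-fold higher in brain and 63.0-fold at the 430A scale. All 6 of its probe sets on 430B were higher in brain under both scalings, at 1746.8 to 8149.5 against 4.8 to 92.3, as were its 5 on 430A, at 1299.5 to 3272.1 against 8.4 to 177.8. Mirg, from the same imprinted cluster, read 971.6 and 41.2 (5.45-fold). Miat (2304 against 31.9, 16.7-fold), the miR-124 host gene Mir124a-1hg (1660 against 12.9, at least 13.8-fold) and the paternally expressed Kcnq1ot1 (817.1 against 36.9, 5.12-fold) were also on the brain side. The snoRNA host transcripts Zfas1 (834.2 against 509.9) and Snhg3 (67.3 against 104) were 2.64-fold and at least 3.73-fold higher in kidney. At the 430A scale neither was called, with Zfas1 1.17-fold higher in brain and Snhg3 at least 1.21-fold higher in kidney. Of 25 imprinted genes, 20 cleared the floor, with 7 brain calls and 3 kidney calls (median 0.22, and 1.22 with 10 and 0). Zdbf2, a paternally expressed zinc finger gene, was 6.12-fold higher in brain (973.1 against 36.8). H13, a signal peptide peptidase (33.6 against 96.5, at least 3.46-fold), Airn (99.1 against 72.7, at least 2.61-fold) and Cobl (575.3 against 280.9, 2.11-fold) were the kidney calls, all lost at the 430A scale.

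Markers of other tissues and reference genes were scarce on this design. Of 6 genes of pituitary, blood, fat, adrenal gland and muscle, 4 were above the floor (median 0.23). Ckm, the muscle creatine kinase, read 435.7 in brain and 38.9 in kidney, 2.59-fold higher in brain, and Dbh and Cyp11a1 of adrenal gland read 109.1 against 40.5 and 212.8 against 30.3, and neither was called. Ttr, the thyroxine carrier made by choroid plexus and liver, read 12769.8 and 3471.6, 1.18-fold higher in kidney and 2.62-fold higher in brain at the 430A scale. Whether RNA of neighbouring tissue added to any ratio was not tested. Of the expression reference genes, Ipo8 read 132.9 and 21.2 (log2 ratio 0.14) and Sdha 97.3 and 21.3, which was under the floor. The Y-linked Eif2s3y (15.9 against 18.4) and Uty (6.5 against 24) were under the floor in both tissues.

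The genes brightest in both tissues changed their call with the scale. Above the 90th percentile of both arrays lay 843 genes, and the 6 with the highest mean percentile were Ttr, Sf1, Ywhaq, Map1lc3a, Dpysl2 and Prpf19. The splicing factor Sf1 read 5842.4 in brain and 4082.9 in kidney, 3.02-fold higher in kidney when 430B was centred by itself and equal within 1.02-fold at the 430A scale. The other Sf1 probe set on 430B, at 499.7 against 54.8, was called for brain under both scalings. Ywhaq, a 14-3-3 protein, read 5752.6 and 3422.9 (2.57-fold, and 1.20-fold towards brain). Dpysl2, which promotes axon growth, read 10686 and 1759.8, 1.4-fold higher in brain and 4.33-fold at the 430A scale, and the autophagy protein Map1lc3a 7452.7 and 2144.1, 1.24-fold towards kidney and 2.48-fold towards brain. The splicing ubiquitin ligase Prpf19 (3338 against 3796.5) was 4.92-fold higher in kidney and 1.59-fold at the 430A scale. By these probe sets, none of the 6 was called the same way under both scalings. Ttr, Sf1 and Ywhaq were read by _s_at sets, which can match several transcripts, and Map1lc3a and Prpf19 by _x_at sets.

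The ratio also moved with brightness. With no floor, the median log2 ratio lay between 0.31 and 0.64 in each of the 8 dimmer of 10 equal bins of probe sets by mean percentile, at -0.07 in the ninth bin and at -0.93 in the brightest. In that brightest bin, 1072 probe sets were called for kidney and 196 for brain, and 207 and 892 at the 430A scale. A single shift of the whole array therefore could not centre dim and bright probe sets at once. Neither the part of array type in this nor that of tissue was tested.

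Annotation split the calls further. Of the 22411 probe sets, 12518 had a named gene, 2047 a clone-based symbol such as a Riken or Gm number, 241 several symbols and 7605 none. Of those above the floor, named genes were called for brain in 17.1% and for kidney in 31.9% of 8858, clone-based symbols in 15.5% and 15.3% of 962, and probe sets with no symbol in 22.9% and 6.66% of 3501. At the 430A scale, probe sets with no symbol were called for brain in 36.6% and for kidney in 1.12%, and named genes in 37.7% and 8.68%, so the higher brain share of the former was not seen there. They were also dimmer, with a median of 91.1 in brain and 12.4 in kidney against 158 and 33.2 for named genes, so brightness moved with annotation. By probe set suffix, kidney calls took 53.7% of the 523 _s_at sets above the floor, which can match several transcripts, 37.1% of the 596 _x_at sets and 21.8% of the 12069 plain _at sets. The _s_at sets were the brightest of these in kidney, with a median of 116.2 against 19 for plain sets. Named kidney calls read by _s_at sets included Hoxd8, Mep1a, Tmprss2, Mrpl9, Mrps6 and Kif12, and by _x_at sets Dpp4, Rnf185 and Rnf103. Named brain calls included Atp8a1 from an _s_at set and Bcan, Slc1a3, Pcdh8 and Acad10 from _x_at sets.

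**Figure D5:**
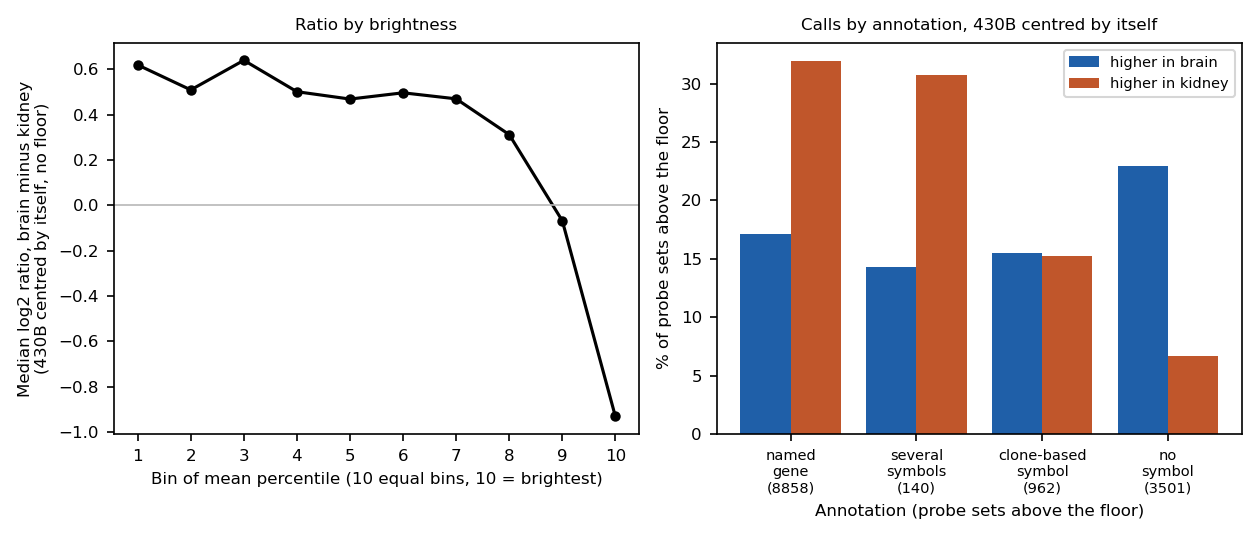
Left, the median log2 ratio, brain minus kidney with 430B centred by itself and no floor, in 10 equal bins of probe sets by mean percentile. It stays at 0.31 or above up to the eighth bin and falls to -0.93 in the brightest. Right, the percentage of probe sets above the floor called for each tissue by kind of annotation, with named genes at 31.9% and probe sets without a symbol at 6.66% for kidney.

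Probe sets of 1 gene are the nearest thing to a repeat reading on these arrays, though they are not replicates. Of 2048 genes with more than 1 probe set above the floor, 1541 had a call, 632 had 2 or more calls in the same direction and 128 had calls in opposite directions, of which 19 under both scalings. Within genes the SD of the log2 ratio was 1.13, against 1.46 over all probe sets above the floor. Tmpo, a lamina-associated nuclear protein, had 1 probe set at 30.9 in brain and 912.8 in kidney and another at 445.3 and 29.5. Hykk, a hydroxylysine kinase, had one at 120.7 and 1142.4 and one at 492.7 and 42.9, and these opposed each other under both scalings, as did those of Tmpo. The kinase Dclk1, which binds microtubules in neurons, had probe sets at 1708.7 against 28.6 and 1221.4 against 20.8 for brain, and one at 596.5 against 470.1, which was 3.41-fold higher in kidney and 1.10-fold at the 430A scale. Daam1 (704.9 against 475 for kidney, 3314.5 against 43.7 for brain) did likewise. The 7 probe sets of the chromatin cofactor Ankrd11 ran from a log2 ratio of -3.0 to 2.47, and the 5 of the phosphatase subunit Ppp2r5e from -4.24 to 1.0. Which transcript each of these probe sets reads was not examined here.

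Several genes are also on 430A, whose comparison uses the same kidney array, so the readings below are not independent of those on 430B. Of the 9547 genes, 3747 were on both designs, and calls on 430B for those genes (16.5% brain, 31% kidney) were near those for the 5800 found only on 430B (16.2% and 32.6%). For Nefl the 430A probe set read 2796.2 in brain and 9.9 in kidney, and for Hoxd8 51.6 and 1683.6, in the direction of their 430B readings of 5943 against 2.6 and 47 against 1672.8. The probe sets of Slc1a2 differed in brightness: its brightest on 430B read 8880.8 in brain, the other 3 there 32.4 to 185.8, and that on 430A 129.3 against 2.2 in kidney. Dpysl2, at 10686 and 1759.8 on 430B, read 9.3 and 7.2 on 430A. For such genes 430B held the brighter probe set.

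Kidney genes showed the same contrast between designs. Mecom read 22.7 and 1413.4 on 430B but 96.4 against 4.3 and 18.4 against 22.2 on 430A, where both probe sets were under the floor. Met, at 9.5 and 1220.2 on 430B, read 48.3 and 40.3 there. The reverse held for Lrp2, the endocytic receptor megalin of the proximal tubule: its 430B probe set read 311.7 in brain and 28.1 in kidney and was called for brain, while its probe sets on 430A read 15.2 against 2398.5 and 9.8 against 1059.5. Sparc, called for brain from 292.2 and 16 on 430B, read 2835.7 against 6597.4 and 2425.4 against 5223.1 on 430A, under 2-fold after that array's centring. Tspan8, called for brain from 285.9 and 20.8, had a 430A probe set at 1.3 against 943.3 that was called for kidney, and another at 197.4 and 194.4 that was under 2-fold. The probe sets of Fbln1 on 430A read 165.8 against 514 and 76.2 against 331.2 and leaned to kidney, at log2 ratios of -0.79 and -0.83, against its brain call from 338.9 and 11.2. For all of these the brightest kidney reading was that of 430A, and their brain calls rest on a 430B probe set that was dim in kidney.

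Other genes named above also had 430A probe sets that went against their 430B call. For brain calls, the 430A probe sets of Acad10 and Zfp277 and 1 each of those of Atp2c1 and Kat2b leaned to kidney by under 2-fold. Those of Tmpo included kidney calls. For kidney calls, Chrna4, Cux1, Dclk1, Gphn, Laptm5, Sf1 and Ywhaq each had a 430A probe set called for brain, and Cux1 and Ywhaq also had one called for kidney. None of the 7 was called for kidney on 430B at the 430A scale. Mrpl9, Dach1 and Kdm2b each had a 430A probe set that leaned to brain by under 2-fold, at log2 ratios of 0.61, 0.34 and 0.028. Another 430A probe set of Mrpl9 leaned to kidney, at -0.47. Mrpl9, Dach1 and Kdm2b were called for kidney on 430B under both scalings.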

How the data were processed

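Sense signals of 1 brain array (430B) and 1 kidney array (430 2.0) were compared, with the brain 430A array used for scaling. The authors deposited linear signal intensities from the MAS5 algorithm, per the submitters' processing notes. The scaling target and detection calls were not given in the sources used here, so a floor on the signal was used instead. Antisense arrays were not used.

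Genes came from GEO's platform annotation, which gave 1 symbol to 14565 of the 22411 probe sets, several to 241 and none to 7605, and 14390 of the symbols were updated to RefSeq (GRCm38.p6) through the gene identifier. Promoter sequences of 7483 of the genes were in the RefSeq table. Log2 ratios were centred on 8047 probe sets (8463 for 430A), and a call needed 2-fold. No test was run, since each tissue had 1 array, and precision is limited by that number. Counting was tested on simulated data before use.

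Alternatives changed the scaling, the floor, the fold threshold (3-fold) and the choice of probe set per gene. The members and the 32 gene lists were chosen with earlier results of these data known. The result of 1 list is not reported here. The text names the 12 genes with the largest ratio each way that kept their call under both scalings and with the floor at the 75th percentile, for each list the 5 members with the largest ratio and up to 3 called against the list's median, the 6 genes brightest in both tissues, the 6 with the widest opposite calls and the promoters of the 2 strongest genes each way with a motif. Slc12a3, Ptprc, Sdha, Uty, Eif2s3y and the genes compared between designs were singled out after their values were seen. Python 3.11.15, numpy 2.4.6, pandas 2.3.3 and matplotlib 3.10.9 were used.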

Additional observations from a re-analysis of the deposited data

How the results depend on the processing

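With 430B centred by itself, 2490 probe sets and 1124 genes were called for brain and 3250 and 2195 for kidney. Quantile normalization kept all 4 counts within 1.5 times, as did the median over the probe sets of a gene for both gene counts. For brain, the probe set count moved to 4375 at the 430A scale, 4907 as deposited, 905 with the floor at the 75th percentile, 198 with the floor of the 430A comparison, 6994 with no floor and 1130 at 3-fold. The gene count moved to 2317, 2728, 521, 148, 2393 and 564 in the same order. For kidney, the probe set count moved to 737 at the 430A scale, 435 as deposited, 962 with the floor of the 430A comparison, 5514 with no floor and 2049 at 3-fold, and the gene count to 503, 296, 762 and 1401 at the 430A scale, as deposited, with the 430A floor and at 3-fold. By construction, scales that raise the brain array add brain calls and remove kidney calls, and higher floors and thresholds remove both. What sets the brain and kidney arrays apart in level was not tested.

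Of 182 named genes with a call, 149 kept it at the 430A scale, 136 as deposited, 170 under quantile normalization, 158 with the floor at the 75th percentile, 108 with the 430A floor, 182 with no floor and 168 with the median over probe sets. Most named genes were chosen for large ratios, and the 12 largest each way for keeping their call, so these counts do not carry over to all genes. Over all genes, 22.9% of the 2195 kidney genes kept their call at the 430A scale. Of the 11 list medians of 2-fold or more, those that changed sign were fatty acid oxidation and peroxisome genes (0.18 at the 430A scale, 0.47 as deposited) and, as deposited, the endothelial, mural and fibroblast (0.078), distal nephron (0.11) and podocyte (0.26) lists. Of the 18 smaller medians, 8 turned from kidney to brain at the 430A scale and as deposited and 2 under quantile normalization, and 3 turned from brain to kidney with the floor at the 75th percentile (guidance -0.30, oligodendrocyte -0.12 and mitochondrial ribosome -0.44). With the 430A floor 4 turned to kidney, those of the guidance, microglial and immune, mitochondrial ribosome and other tissue lists. With no floor 1 turned to brain. Among named genes under 2-fold, Ankrd11 (1.22), Map1lc3a (1.31) and Ttr (1.39) turned towards brain at the 430A scale. Among those called for kidney, log2 ratios that turned towards brain at the 430A scale and as deposited were those of Cobl (0.55 and 1.03), Daam1 (0.082 and 0.57), Enpp4 (0.14 and 0.63), Flrt3 (0.41 and 0.90), Lrfn4 (0.13 and 0.13), Pcdh17 (0.20 and 0.69), Ppp2r5e (0.31 and 0.80), Sf1 (0.030 and 0.52), Ywhaq (0.26 and 0.75) and Zfas1 (0.22 and 0.71). As deposited only, Abcc9 (0.068), Chrna4 (0.20), Dclk1 (0.34), Enpp6 (0.14), H2-Aa (0.025), Kcnj11 (0.33), Mrpl44 (0.26), Mrps27 (0.10), Pou3f3 (0.25) and Zdhhc20 (0.25) turned towards brain. With the median over probe sets, Daam1 (0.50) and Dclk1 (3.34) turned towards brain and Hykk (-0.10) and Tmpo (-1.61) towards kidney. Signal over background limits the dim genes: 8950 of the 22411 probe sets were under the floor in both tissues. No paired analysis was possible because each tissue had 1 array and no test was run.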

Other observations

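Long noncoding RNA genes by RefSeq biotype, which include Meg3, Miat, Mirg and Mir124a-1hg of the lists, gave 1522 probe sets, of which 692 were above the floor. Of these, 17.9% were called for brain and 12.9% for kidney, and 32.7% and 1.19% at the 430A scale. Over all probe sets the shares were 18.5% and 24.1%, and 36.9% and 6.21% at the 430A scale. So the brain share was not above that of all probe sets, and the kidney share was lower. The long noncoding probe sets were also dimmer, with a median of 80.25 in brain and 12.7 in kidney. Those of protein coding genes had medians of 156 and 33.1. The part of brightness in the lower kidney share was not tested. The genes named here were chosen after their values were seen, among those with the same call under both scalings and with the floor at the 75th percentile. Hoxb5os, an RNA opposite the Hoxb5 gene, read 236.2 in brain and 2416.9 in kidney, 44.2-fold higher in kidney and 14.3-fold at the 430A scale. Snhg18, a snoRNA host, read 310.5 and 623.4 (8.68-fold and 2.81-fold), and Fam120aos 487.2 and 813.8 (7.22-fold and 2.34-fold). Which strand the probes of Hoxb5os and Fam120aos read was not examined. On the brain side, Cerox1, a regulator of mitochondrial complex I, read 960 and 4.3, at least 7.96-fold higher in brain, and Gm3764 and Gm5113 read 857 against 16.2 and 812.4 against 6.1, at least 7.11-fold and 6.74-fold.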
